A study of Drosophila melanogaster with 56 samples.

Results

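Line 19 and line 4 are fly lines of 1 engineered genotype, in which Obp50b is the only intact member of the Obp50a–d cluster. The 8 Obp50b libraries among the 56 of the series were taken by their genotype and line labels: 4 of line 19 and 4 of line 4, with 2 female and 2 male libraries in each line. Both lines are *Drosophila melanogaster* in the Canton S (B) background. In both, the wild-type cluster had been cut out with CRISPR/Cas9 and an edited copy returned to the same place through an attP site and PhiC31 integrase, after which Cre recombination removed the vector. In that copy Obp50a, Obp50c and Obp50d each carry consecutive premature termination codons and Obp50b does not. Both lines also carry a base substitution in each of the neighbouring genes CG34444 and CG34185, at the sites where Cas9 was directed. Each library was made from whole mated flies of 1 sex, pooled in groups of 30 at 3 to 5 days of age, after depletion of ribosomal RNA. The same construct is therefore shared by the 2 groups, and the comparison of line 19 with line 4 measures how far 2 lines of 1 genotype differ.

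Odorant-binding proteins are small secreted proteins that carry hydrophobic molecules. They are best known from the fluid that bathes olfactory neurons, although several are expressed in other tissues. In a whole fly the RNA of the sexes is dominated by different organs: the ovary makes yolk, chorion and vitelline membrane transcripts, and the testis and accessory gland make sperm and seminal fluid transcripts.

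Total counts ran from 26306371 to 40927563 in the 4 line 19 libraries and from 18841249 to 39203140 in the 4 line 4 libraries. The file headers place all 4 line 19 libraries in a first set of libraries, whereas line 4 has 1 female and 1 male library in that set, 1 female library (63_S43) in a second set and 1 male library (J1_S51) in a set marked as redone, so that line and set cannot be told apart for those 2 libraries. Log CPM values (CPM is a count scaled to the library's depth and TMM factor) correlated at 0.950 or above between any 2 libraries of the same sex. Markers of sex matched the labels: the 2 roX RNAs summed to between 26.6 and 29.7 CPM in the 4 female libraries and between 1154 and 1343 CPM in the 4 male libraries, on unscaled counts. Female-specific transcripts were present to unequal extents in the males. The 3 yolk protein genes summed to 23.6 and 1006 unscaled CPM in the line 19 males 35_S27 and 36_S28, against 1506 and 833 in the line 4 males 59_S21 and J1_S51, and to between 16234 and 20927 in females. Nothing states whether libraries of 1 line and sex came from separate cultures, so p-values measure the spread between these samples.

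Obp50b, the intact gene, cannot be compared between the lines from this table. It had a count of 0 in all 8 libraries, and in all 56 libraries of the series whatever their genotype. The RefSeq annotation of the release 6 assembly gives Obp50b and Obp50c the same span (2R, bases 14371186 to 14373006), and the deposited table gives both the same exon length of 1648 bases. A fragment from that span therefore cannot be told apart by gene, and the counts under Obp50c are given here for the span. They were mainly male: 395 and 523 in line 19 males and 370 and 288 in line 4 males, against 53 and 7 in line 19 females and 12 and 0 in line 4 females. In CPM the libraries of the lines overlapped in females and not in males, and the log2 fold change over both sexes was 0.64 ± 0.60 (edgeR, adjusted p = 0.818). Obp50a had at most 22 counts and Obp50d at most 38 in any library.

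The flanking gene CG34444 had counts of 32, 19, 8 and 0 in the line 19 libraries 33_S25, 34_S26, 35_S27 and 36_S28, against 28, 84, 0 and 54 in the line 4 libraries 54_S31, 63_S43, 59_S21 and J1_S51. CG34185 had at most 19. In CPM, CG34444 was lower in both line 19 females (0.796 and 0.756 CPM) than in both line 4 females (1.33 and 4.67 CPM) and overlapped in males, and CG34185 overlapped in both sexes. None of the 5 tested genes of the locus (Obp50a, Obp50c, Obp50d, CG34444 and CG34185) was called between the lines by edgeR's quasi-likelihood test (0 of 5, with 0 at an unadjusted p under 0.05) or by DESeq2 (0 of 5, with 1 at an unadjusted p under 0.05). CG34444 alone passed when all 54 libraries used by the study shared the estimate of spread (edgeR, log2 fold change -2.58, adjusted p = 0.0347). That fit called 2185 of the 15806 genes tested, so 1 call among 5 genes does not set the locus apart.

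Across the genome, 15806 genes were tested with sex as a block, and 2 differed between line 19 and line 4 at an adjusted p under 0.05 (0.0127% of the genes tested). CG13359, on the X chromosome, was higher in line 19 (1 gene, 0.00633%), and CG9018, on 3L, was lower (1 gene, 0.00633%). At an unadjusted p under 0.05 there were 1380 genes. Over all genes tested the median log2 fold change was 0.02. The fit behind these calls takes the line effect as equal in both sexes. With 4 means averaged over the sexes, 822 genes were called (62 higher and 760 lower in line 19).

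CG13359 (FBgn0025616, X, bases 801669 to 803470, minus strand, release 6 coordinates) had 163 and 194 CPM in line 19 females, against 3.14 and 2.11 CPM in line 4 females. In males it had 106 and 262 CPM in line 19, against 11.6 and 13.9 CPM in line 4. The libraries of the lines did not overlap in either sex, and the lowest line 19 library was a male that still lay above every line 4 library. The log2 fold change over both sexes was 4.92 ± 0.53 (SE, n = 4 libraries per line; edgeR quasi-likelihood test, adjusted p = 0.0406). It was 6.08 ± 0.49 in females (adjusted p = 0.000468) and 3.86 ± 0.43 in males (adjusted p = 0.0726). The difference between these sex-specific values, 2.22 ± 0.57, did not pass the threshold (adjusted p = 0.0705).

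CG9018 (FBgn0035318, 3L, bases 2235284 to 2237076, minus strand) went the other way. It had 22.9 and 28.7 CPM in line 19 females, against 120 and 104 CPM in line 4 females. In males it had 19.98 and 19.7 CPM in line 19, against 48.01 and 73.5 CPM in line 4. Again no library of line 19 reached the lowest of line 4, and line 19 females and males were at nearly the same level. The log2 fold change was -1.87 ± 0.21 over both sexes (edgeR, adjusted p = 0.0406), -2.12 ± 0.24 in females (adjusted p = 0.00142) and -1.61 ± 0.24 in males (adjusted p = 0.196).

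**Figure D1:**
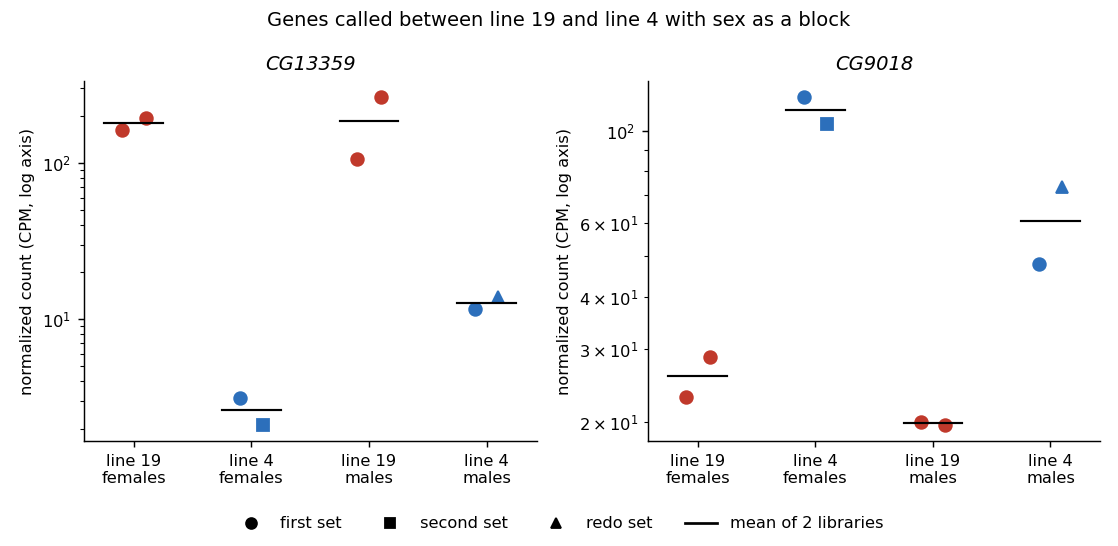
Expression of CG13359 and CG9018 in each of the 8 libraries (CPM, log axis), by sex, with line 19 left of line 4; each point is a library, its shape the set named in the file headers, and a bar the mean of 2 libraries. CG13359 sits at 106 to 262 CPM in line 19 and at 2.11 to 13.9 CPM in line 4, and CG9018 at 19.7 to 28.7 CPM in line 19 and 48.01 to 120 CPM in line 4.

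Neither call held in every setting. Both genes passed with DESeq2, with limma-voom (adjusted p = 0.00279 for each), with DESeq2's size factors in edgeR and under each other filter. They also passed with 54 libraries, with 4 means averaged over the sexes and with each library's trend with exon length removed. With the 6 libraries of the first set alone, or with set as a term, edgeR called 0 genes (1059 and 619 at an unadjusted p under 0.05), although the log2 fold changes of CG13359 (4.78 and 4.93) and CG9018 (-1.80 and -1.78) stayed close to those above. Leaving out 1 library at a time gave 0 called genes in 6 of the 8 cases, 1 (CG13359) without the line 19 male 35_S27, and 3 (CG9018, CG5151 and Ror, all lower in line 19) without the line 4 male 59_S21.

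The same 2 genes varied between lines of other genotypes in the series. The remaining 46 libraries that the study used come from 12 other lines, and their means were set beside those of line 19 and line 4 without a test. In females, CG13359 averaged 178 CPM in line 19 and 2.74 CPM in line 4 in this normalization over 54 libraries. Line 24 (Obp50c), line 8 (Obp50Pos) and line 11 (Obp50a) were at 725, 374 and 328 CPM, whereas the other 9 lines were between 1.29 and 14.1 CPM. In males, the same 3 lines were at 208, 136 and 119 CPM, with line 19 at 171 and line 4 at 11.8 CPM, and the other 9 lines were between 9.68 and 13.3 CPM. No line lay between these 2 ranges in either sex.

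CG9018 set the same 4 lines apart in the opposite direction. In females it averaged 25.6 CPM in line 19 and 117 CPM in line 4. Lines 24, 8 and 11 were at 21.3, 28.5 and 23.7 CPM, and the other 9 lines were between 68.7 and 196 CPM. In males it averaged 18.5 CPM in line 19 and 56.5 CPM in line 4, with lines 24, 8 and 11 at 13.8, 15.5 and 15.5 CPM and the other 9 lines between 29.9 and 98.1 CPM. Lines 19, 24, 8 and 11, which had the 4 highest levels of CG13359, thus had the 4 lowest levels of CG9018 in both sexes. These 4 lines belong to 4 different genotypes, and for Obp50a, Obp50b and Obp50c the second line of the genotype lay in the other range.

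**Figure D2:**
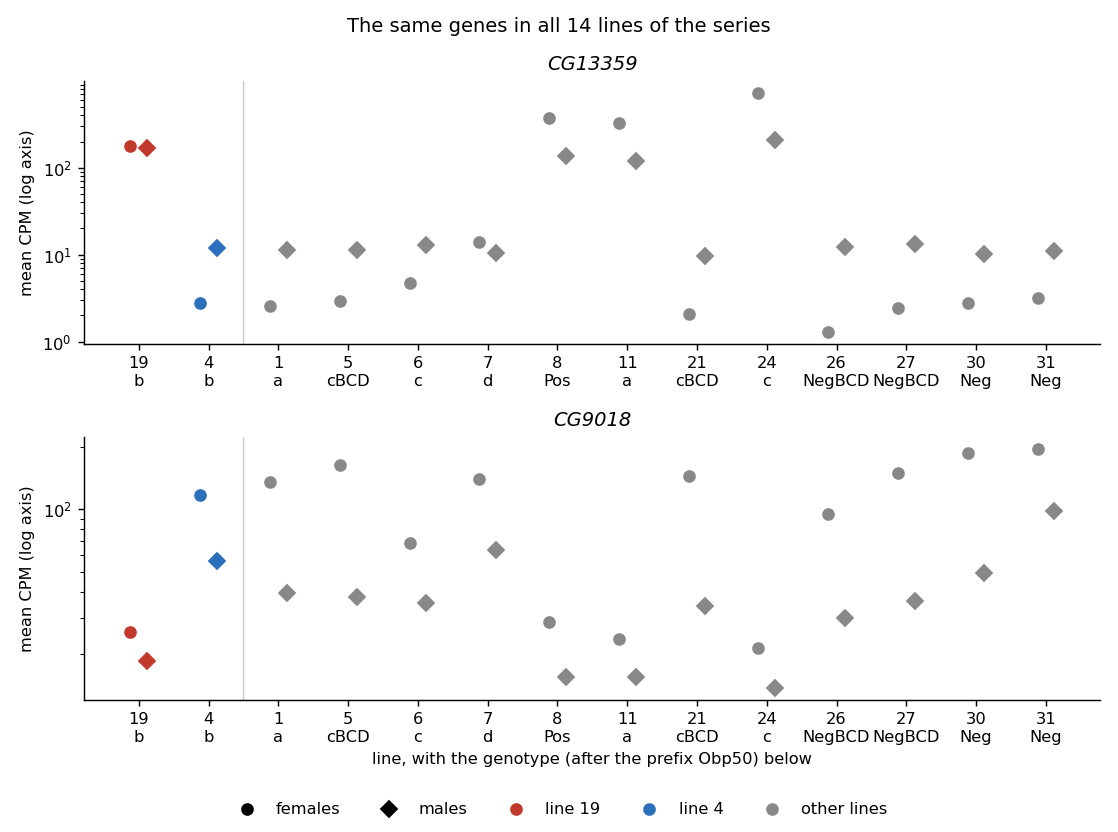
Mean CPM (log axis) of CG13359 and CG9018 in each of the 14 lines, in females and in males, with line 19 and line 4 first and the 12 other lines after them. Lines 19, 24, 8 and 11 are high for CG13359 (119 CPM or above) and low for CG9018 (28.5 CPM or below) in both sexes.

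Beyond the 2 called genes, a larger group was separated by line without passing edgeR's test over both sexes. In 554 genes every line 19 library was above every line 4 library of its own sex (3.50% of genes tested), and in 607 every one was below (3.84%). With 2 libraries per line and sex, a random order of libraries would also separate some genes. These shares alone therefore do not show a line effect. The separated genes with over 2-fold differences in both sexes and a mean of at least 1 CPM numbered 42, CG13359 and CG9018 among them, of which 28 were higher and 14 lower in line 19. After CG13359 and CG9018, the smallest edgeR adjusted p among them was 0.159. The genes in the next paragraphs were picked from this group after their values were seen.

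CG30089 had 144 and 568 CPM in line 19 females against 44.2 and 46.1 CPM in line 4 females, and 215 and 347 CPM in line 19 males against 53.9 and 55.6 CPM in line 4 males. The line 19 means exceeded those of all 12 other lines in both sexes, while the 2 line 19 female libraries lay far apart. Nepl5, a neprilysin-like metallopeptidase gene, had 789 and 1537 CPM in line 19 females against 346 and 437 CPM in line 4 females, and 615 and 714 CPM in line 19 males against 199 and 183 CPM in line 4 males. Fign, the fidgetin gene whose product severs microtubules, had 320 and 415 CPM against 129 and 207 CPM in females, line 19 first, and 163 and 210 CPM against 58.4 and 60.7 CPM in males. For these 3 genes the log2 fold changes over both sexes were 2.67 ± 0.40 (CG30089), 1.68 ± 0.25 (Nepl5) and 1.39 ± 0.23 (Fign), with edgeR adjusted p-values of 0.159, 0.159 and 0.231. The calls depended on the tool. All 3 passed over both sexes with DESeq2 (adjusted p = 1.16e-07, 1.16e-07 and 1.26e-05) and with limma-voom (adjusted p = 0.0203, 0.0203 and 0.0288).

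CG5151 was low in line 19 and unusually high in line 4. It had 33.1 and 39.6 CPM in line 19 females against 752 and 607 CPM in line 4 females. In males it had 53.5 and 59.7 CPM in line 19, against 68.2 and 432 CPM in line 4, so that the 2 line 4 males differed from each other by more than the lower one differed from line 19. Line 4 females averaged 710 CPM over the 54 libraries, and the highest of the 12 other lines reached 125 CPM. The log2 fold change was -3.18 ± 0.62 over both sexes (edgeR, adjusted p = 0.467) and -4.23 ± 0.74 in females (adjusted p = 0.00869).

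Hsepi, which encodes the epimerase that modifies heparan sulfate, had 34.1 and 36.3 CPM in line 19 females against 127 and 383 CPM in line 4 females, and 40.2 and 37.5 CPM in line 19 males against 45.6 and 145 CPM in line 4 males. CG8170 had 4.75 and 1.99 CPM in line 19 females against 116 and 105 CPM in line 4 females. In line 19 males it had 9.68 and 10.5 CPM, against 12.5 and 53.8 CPM in line 4 males. In CG5151, Hsepi and CG8170 alike, the higher of the 2 line 4 males was J1_S51, the library of the redone set. Over both sexes Hsepi and CG8170 did not pass by edgeR (adjusted p = 0.570 for each). DESeq2 called CG5151, Hsepi and CG8170 (adjusted p = 7.00e-06, 0.00841 and 0.000106), and limma-voom did not.

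Within females, with a mean fitted for each sex and line, the lines differed in many more genes. There were 1780 called genes (11.3% of the 15806 tested), of which 248 were higher in line 19 (1.57%) and 1532 lower (9.69%). Of these, 1098 differed over 2-fold, 166 higher and 932 lower. Over all genes tested, the female median was 0.133 on the log2 scale under TMM and 0.238 with DESeq2's size factors, so genes described here as higher or lower moved relative to a centre that depends on the scaling. As whole flies were pooled, fewer cells of a type and less RNA per cell cannot be told apart in any of these values.

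The genes lower in line 19 females were long, by the 10 bins of exon length into which all genes tested were cut. Their median exon length was 5379.5 bases, against 1533.5 bases for all genes tested and 1112.5 bases for the 248 genes higher in line 19. In the longest bin of genes (4827 to 71820 bases), 896 of 1579 were lower and 8 higher in line 19 females, and the median log2 fold change was -0.862. In the shortest bin (31 to 522 bases), 5 of 1585 were lower and 16 higher, and the median was 0.517. Across genes, the female log2 fold change and exon length had a Spearman rho of -0.480 over 15806 genes from the same 8 libraries. The male values did not fall with length: their median was 0.00454 in the longest bin and -0.166 in the shortest, and rho was 0.0948.

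**Figure D3:**
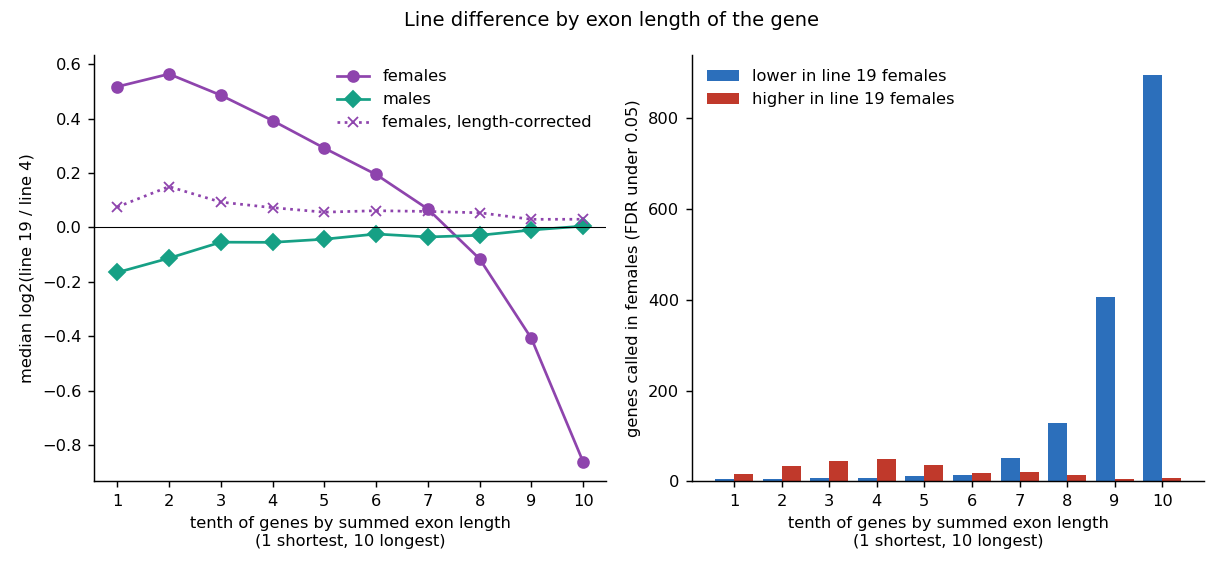
Genes tested, in 10 groups of increasing exon length: the number called higher and lower in line 19 females, and the median log2 fold change of line 19 over line 4 in females, in males, and in females with the length trend removed (dotted). The number lower in line 19 females climbs from 5 in the shortest bin to 896 in the longest, and the male medians stay between -0.166 and 0.00454.

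The shift was seen in both female libraries of each line. On the log2(CPM + 1) scale and relative to the mean of the 4 female libraries, the longest bin of genes had a median log2 difference of -0.479 and -0.443 in the line 19 libraries 33_S25 and 34_S26, against 0.449 and 0.431 in the line 4 libraries 54_S31 and 63_S43. In males the corresponding values were -0.0103 and 0.0271 in line 19, against 0.0360 and -0.0427 in line 4. The 2 line 4 females, which belong to different sets, had similar values. The part of set in this shift was not tested.

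The female count depended on this trend. When each library's smooth trend with exon length was taken into the fit, an alternative chosen after seeing the data, 222 genes were called in females (44 higher and 178 lower in line 19). All 178 of the lower genes and 26 of the 44 higher genes were also among the 1780. With first-set libraries alone, where each sex has 1 line 4 library, 1032 were called in females (27 higher and 1005 lower). Leaving out the line 4 female 54_S31 gave 1140 and leaving out the line 4 female 63_S43 gave 1170, of which 36 were higher, against 248 with all libraries.

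The 3 genes with the smallest p for a difference between the sexes in the line effect were CG11873, mim and CG42232, and all were long genes lower in line 19 females. CG11873 (3R, bases 29063040 to 29108948, 12599 exonic bases) had 30.8 and 25.6 CPM in line 19 females against 244 and 230 CPM in line 4 females. In males it had 257 and 249 CPM in line 19 against 240 and 207 CPM in line 4. Line 19 females were thus far below every other group of libraries, whereas line 4 females were at the level of both male groups. The log2 fold change was -3.07 ± 0.18 in females (edgeR, adjusted p = 0.000426) and 0.18 ± 0.17 in males (adjusted p = 1.00), and the female value minus the male value was -3.25 ± 0.25 (adjusted p = 0.00467).

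The gene mim (missing-in-metastasis), whose product links membrane curvature to actin, had 33.6 and 29.9 CPM in line 19 females against 189 and 183 CPM in line 4 females, and 179 and 179 CPM in line 19 males against 162 and 147 CPM in line 4 males. CG42232 had 37.8 and 38.7 CPM in line 19 females against 308 and 307 CPM in line 4 females, and 237 and 260 CPM in line 19 males against 271 and 208 CPM in line 4 males. The same arrangement as in CG11873 held for both: 3 groups at similar levels, and line 19 females low. Over the 54 libraries, females of the other 12 lines had medians of 104 (CG11873), 94.3 (mim) and 121 CPM (CG42232). Line 4 females averaged 247, 194 and 321 CPM there, above 10, 10 and 9 of the 12 lines. Line 19 females averaged 28.2, 31.7 and 38.1 CPM, below 10, 12 and 11 of them. The female minus male differences were -2.76 ± 0.22 for mim and -3.06 ± 0.26 for CG42232 (edgeR, adjusted p = 0.00467 for each). With the length trend removed the differences were -1.97 (CG11873), -1.71 (mim) and -1.87 (CG42232) and none passed (adjusted p = 0.0986 for each), and with first-set libraries alone they were -3.33, -2.86 and -3.02 in the same order, again without passing (adjusted p = 0.0823 for each).

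**Figure D4:**
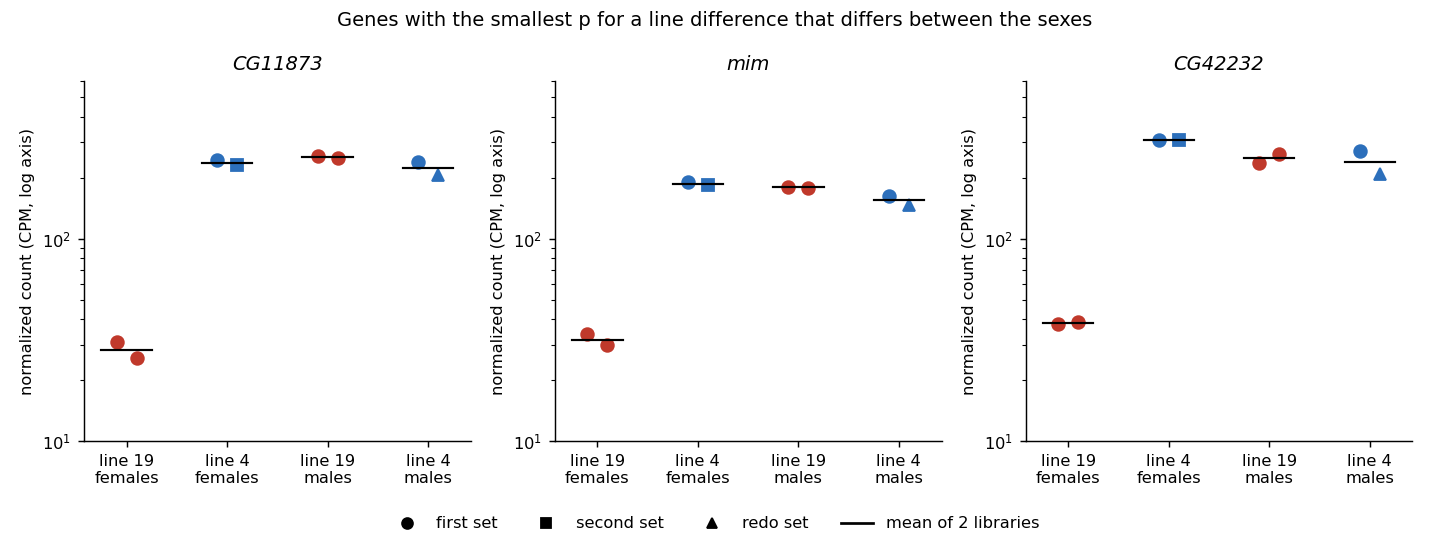
CPM (log axis) of CG11873, mim and CG42232 in each of the 8 libraries, by sex, with line 19 left of line 4; each point is a library, its shape the set, and a bar the mean of 2 libraries. The line 19 females sit at 25.6 to 38.7 CPM, and the other 6 libraries at 147 to 308 CPM.

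In all, the female and male line effects differed in 796 genes (5.04% of the 15806 tested). In 734 of them the female value was below the male value (4.64%) and in 62 above (0.392%). The 734 genes had a median exon length of 6339 bases, a median log2 fold change of -1.36 in females and 0.0513 in males. This count depended on the fit. It was 512 with DESeq2's size factors, 269 without the line 4 female 54_S31 and 478 without the line 4 female 63_S43. With first-set libraries alone it was 0 (2339 at an unadjusted p under 0.05), and with the length trend removed it was 0 (1656 at an unadjusted p under 0.05).

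The following 4 long genes lower in line 19 females were picked after their values were seen. The chromatin remodeller kis (kismet) had 145 and 152 CPM in line 19 females against 988 and 1117 CPM in line 4 females, while its 4 male libraries lay between 837 and 894 CPM. The Brahma complex subunit osa had 89.1 and 90.0 CPM against 453 and 490 CPM in females of line 19 and line 4, and between 330 and 381 CPM in males. The trithorax-group histone methyltransferase gene ash1 had 26.9 and 21.8 CPM in line 19 females against 120 and 120 CPM in line 4 females. In mud, which orients mitotic spindles, line 19 females had 22.97 and 23.9 CPM against 204 and 201 CPM in line 4 females. All 4 genes passed the test in females (edgeR, adjusted p = 0.000426 for each), with log2 fold changes of -2.83 (kis), -2.40 (osa), -2.30 (ash1) and -3.11 (mud). With the length trend removed the values were nearer 0, at -1.35 (kis), -1.23 (osa), -1.34 (ash1) and -2.05 (mud), and each still passed (adjusted p from 0.0106 to 0.0215).

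The levels of the other 12 lines give a range against which both lines can be read. The longest bin of genes was at a median log2 difference of -0.483 in line 19 females and 0.455 in line 4 females relative to the median of the other 12 lines, on the log2(CPM + 1) scale, and those 12 lines ran from -0.638 to 0.617. There were 2 other lines below line 19 and 3 above line 4. For the shortest bin line 19 females were at 0.160 and line 4 females at 0.0267, and the other 12 lines ran from -0.0321 to 0.0704, so line 19 lay inside the range of the other lines for long genes and above it for short genes. For the 1532 genes lower in line 19 females the shift was -0.683 in line 19 and 0.460 in line 4, with the other lines between -0.646 and 0.649. Among the 1532 genes lower in line 19 females, line 19 was below all 12 other lines in 657 (42.9%, against 9.08% of all genes tested) and line 4 above all 12 in 64 (4.18%, against 7.02% of all genes). These genes were chosen because line 19 females were low against line 4. That choice by itself favours a low line 19 and a high line 4, so the shares and shifts of both lines are a description.

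**Figure D5:**
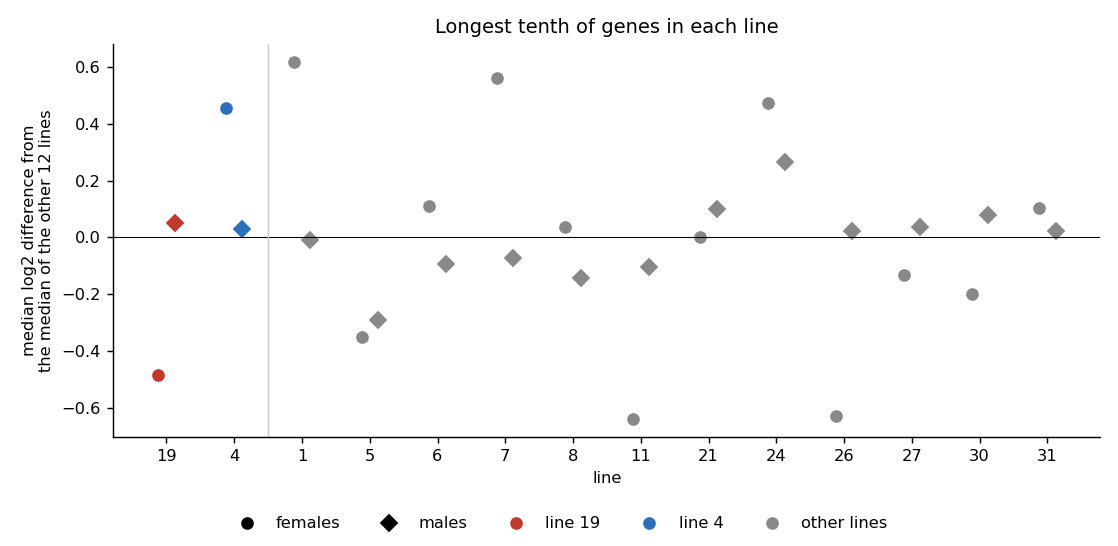
Median log2 difference from the median of the other 12 lines, for the longest bin of genes, in each of the 14 lines and both sexes, with line 19 and line 4 first. In females line 19 is at -0.483 and line 4 at 0.455, with the other 12 lines between -0.638 and 0.617, and in males line 19 is at 0.0511 and line 4 at 0.0295.

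Ovarian and germline transcripts were compared next. None of the 14 chorion and vitelline membrane genes and none of the 3 yolk protein genes was called in females, whose called share over all genes was 11.3%. The medians of these lists were 0.254 and 0.101 on the log2 scale, and -0.0153 and -0.0621 with the length trend removed. The 9 chorion genes summed to 16911 and 14341 unscaled CPM in line 19 females, against 9265 and 10836 in line 4 females. The germline marker nos was higher in line 19 females (232 and 188 unscaled CPM against 128 and 116). In contrast, osk was lower (137 and 122 against 393 and 425), and vas had 127 and 133 against 128 and 148. In the piRNA pathway, which silences transposons in the germline, 3 of 15 tested genes were lower in line 19 females and 0 higher. The list had a median log2 fold change of -0.478 in females and a median exon length of 3015 bases. The gene del (deadlock), part of the complex that licenses transcription of piRNA clusters, had 35.5 and 38.3 CPM in line 19 females against 119 and 131 CPM in line 4 females (log2 fold change -1.76 ± 0.29, edgeR adjusted p = 0.00634). The Tudor-domain genes qin and krimp changed by -1.67 ± 0.23 and -1.40 ± 0.35 on the log2 scale (adjusted p = 0.00280 and 0.0377). The libraries of the lines did not overlap in females for any of the 3. That held for every gene called in females, and for 7761 of all 15806 genes tested. With 1 library left out at a time del and qin passed in 8 of 8 fits and krimp in 4. None of the 3 was still called with the length trend removed (adjusted p = 0.0523 for del, 0.114 for qin and 0.114 for krimp).

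Of 91 ribosomal protein genes tested, 6 were higher and 0 lower in line 19 females (6.59% called, against 11.3% of all genes, and 1.57% of all genes higher), and the list's median log2 fold change was 0.236, against 0.133 for all genes. RpLP2, an acidic stalk protein gene of the large subunit, had 3011 and 3761 CPM in line 19 females against 1504 and 1825 CPM in line 4 females (log2 fold change 1.02 ± 0.20, edgeR adjusted p = 0.0152). RpL38 had 212 and 389 CPM in line 19 females against 122 and 135 CPM in line 4 females. RpL24 and RpS9 had log2 fold changes of 0.99 and 0.89 (adjusted p = 0.0217 and 0.0414). With the length trend removed the median of the list was -0.0603, and none of these 4 genes passed. With 1 library left out at a time RpLP2 passed in 6 of 8 fits, RpL38 and RpL24 in 5 each and RpS9 in 2.

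Small nucleolar RNAs and mitochondrial transcripts gave few calls. Of 177 small nucleolar RNAs, 2 were higher in line 19 females and 0 lower (1.13% called, against 11.3% of all genes). These were snoRNA:U3:9B, a copy of the U3 RNA used in ribosomal RNA processing, with 13.6 and 11.8 CPM in line 19 females against 5.08 and 5.39 CPM in line 4 females, and snoRNA:Psi28S-1192a, with 163 and 122.8 CPM against 87.6 and 74.8 CPM. Near-identical copies share reads, so single members are uncertain. Of 20 mitochondrial transcripts 1 was called in females (5%). It was mt:CoII, a cytochrome c oxidase subunit, higher in line 19 females, at 1031 and 2076 CPM against 585 and 529 CPM in line 4 females (log2 fold change 1.48 ± 0.36, edgeR adjusted p = 0.0358). Its call was lost with the length trend removed (adjusted p = 0.226) and in 3 of 8 fits with 1 library left out, where the value ran from 0.89 to 1.90. The small nucleolar RNAs each passed in 2 of 8 such fits, and neither passed with the length trend removed (adjusted p = 0.407 and 0.498). Mitochondrial transcripts took 3.80% and 6.27% of counts in line 19 females, against 1.96% and 1.80% in line 4 females.

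Lists of sensory, gut and clock genes were compared in the same way. Over all genes 11.3% were called in females, 1.57% higher and 9.69% lower in line 19. The called shares were 1.85% of gustatory receptors, 7.14% of gut serine proteases and 12.5% of clock genes. None of the 47 odorant-binding protein genes, 56 odorant receptors or 64 ionotropic receptors was called in females. Of 54 gustatory receptors 1 was lower, Gr39a, a receptor gene linked to male courtship, with 2.86 and 2.54 CPM in line 19 females against 9.17 and 10.003 CPM in line 4 females (log2 fold change -1.82 ± 0.25, edgeR adjusted p = 0.00301). Of 28 gut serine proteases 2 were higher: the trypsin gene zetaTry had 60.0 and 79.6 CPM in line 19 females against 30.9 and 30.6 CPM in line 4 females, and iotaTry had 27.97 and 35.5 CPM against 16.5 and 17.7 CPM. Of 8 clock genes 1 was lower, Clk, the activator of the circadian loop, with 12.03 and 9.23 CPM in line 19 females against 36.8 and 42.2 CPM in line 4 females (log2 fold change -1.89 ± 0.20, adjusted p = 0.00119). In males Clk lay between 101 and 130 CPM in all 4 libraries. With the length trend removed Gr39a and Clk passed (adjusted p = 0.0482 and 0.0257), and zetaTry and iotaTry did not (adjusted p = 0.139 and 0.416). With 1 library left out at a time, Gr39a and Clk passed in 8 of 8 fits, zetaTry in 6 and iotaTry in 3.

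Of 18 phototransduction genes, 2 were higher and 1 lower in line 19 females (16.7% called, against 11.3% of all genes). ninaD, a scavenger receptor for carotenoid uptake, had 6.59 and 7.91 CPM in line 19 females against 2.38 and 2.06 CPM in line 4 females (log2 fold change 1.70 ± 0.35, edgeR adjusted p = 0.0168). Rh4, an ultraviolet-sensitive rhodopsin, had 42.8 and 56.8 CPM against 26.8 and 29.8 CPM in the females of line 19 and line 4. norpA, the phospholipase C of the visual cascade and a gene of 8296 exonic bases, had 161 and 224 CPM in line 19 females against 348 and 377 CPM in line 4 females (log2 fold change -0.91 ± 0.21, adjusted p = 0.0300). The norpA value changed sign with the length trend removed (0.11 ± 0.22, adjusted p = 0.874), so its direction depended on the processing. The calls of ninaD and Rh4 were lost with it too (adjusted p = 0.078 and 0.247), which left 0 of the 18 called. The 8 head and eye markers summed to 2975 and 3243 unscaled CPM in line 19 females, against 2242 and 2225 in line 4 females, and their part in these results was not tested.

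Of 112 cuticle protein genes 1 was lower in line 19 females (0.893% called, against 11.3% of all genes). It was Cpr72Ec, with 19.8 and 23.7 CPM against 33.2 and 39.9 CPM in line 4 females (log2 fold change -0.75 ± 0.18, edgeR adjusted p = 0.0300). With 1 library left out at a time Cpr72Ec passed in 5 of 8 fits. It did not pass with the length trend removed (edgeR, adjusted p = 0.0623). No gene was called in females among the 83 cytochrome P450 genes, 35 glutathione S-transferases, 35 UDP-glycosyltransferases, 31 antimicrobial peptides, 17 heat shock proteins or 31 histones. The list medians of these families in females ran from 0.0844 for cytochrome P450 to 0.498 for glutathione S-transferases. Pickpocket channels (26), maltases (8), lysozymes (7), Turandot (7), Mst (23), lipase and amylase (7), larval serum protein (6) and pigment genes (7), and the single To family gene tested, gave no call either.

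Of 48 accessory gland and seminal fluid genes tested, 2 were higher and 2 lower in line 19 females (8.33% called, a smaller share than the 11.3% of all genes). Sfp24Bc had 0.597 and 0.199 CPM in line 19 females against 6.84 and 11.1 CPM in line 4 females, and the 12 other lines were at 0.937 CPM or below, so that line 4 stood above the series. Sfp65A had 0.796 and 0.199 CPM against 2.28 and 2.28 CPM. Acp53C14a, an accessory gland protein gene, went the other way, with 4.48 and 7.67 CPM in line 19 females against 1.24 and 1.83 CPM in line 4 females, and Sfp84E had 0.547 and 0.756 CPM against 0.0950 and 0 CPM. Their log2 fold changes were -4.39 ± 0.50 (Sfp24Bc), -2.08 ± 0.45 (Sfp65A), 1.98 ± 0.32 (Acp53C14a) and 3.55 ± 0.75 (Sfp84E), each past the threshold by edgeR. With 1 library left out at a time Sfp84E ran from 2.62 to 7.31 and Sfp65A from -3.49 to -1.51, each passing in 6 of 8 fits, while Sfp24Bc and Acp53C14a passed in 8 of 8. With the length trend removed Sfp24Bc and Sfp65A passed (adjusted p = 0.0106 and 0.0222), and Acp53C14a and Sfp84E did not (adjusted p = 0.103 and 0.0967). The females had been mated. Their 14 accessory gland markers summed to 21.4 and 10.2 unscaled CPM in line 19 against 15.2 and 4.72 in line 4, between 7020 and 9554 in males, and the part of male RNA in these results was not tested.

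Other large female differences also concerned genes that were expressed in the males of both lines. CG6059 had 1.52 and 0.437 CPM in line 19 females against 42.01 and 112 CPM in line 4 females, and between 37.2 and 54.7 CPM in the 4 males. Its log2 fold change in females, -6.22 ± 0.65 (edgeR, adjusted p = 0.00101), was the largest among genes called in females with a mean of at least 1 CPM there. Females of all 12 other lines were at 5.93 CPM or below, so here too line 4 stood apart. salto and ms(3)76Cc, chosen after their values were seen, had 6.41 and 5.53 CPM and 2.31 and 1.71 CPM in line 19 females, against 23.1 and 107 CPM and 26.7 and 12.8 CPM in line 4 females. In males salto lay between 558 and 705 CPM and ms(3)76Cc between 90.1 and 128 CPM. The 9 testis markers found in the table summed to 8.69 and 3.00 unscaled CPM in line 19 females and to 3.77 and 1.22 in line 4 females, and the part of male RNA in these differences was not tested.

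Among noncoding RNAs, 9 of 1721 long noncoding genes were higher and 11 lower in line 19 females, and 1 of 303 antisense genes was called in each direction. The called shares were 1.16% of long noncoding and 0.660% of antisense genes, against 11.3% of all genes. lncRNA:CR43634 had counts of 12 and 3 in line 19 females against 0 and 0 in line 4 females, and between 374 and 610 in males. lncRNA:CR44479 had counts of 14 and 6 in line 19 females against 0 and 0, lncRNA:CR44750 counts of 13 and 9 against 0 and 0, and asRNA:CR45343 counts of 31 and 5 against 0 and 0. All 4 were called on these few female counts, and each had 65 or more counts in every male library. The calls were fragile: with 1 library left out at a time lncRNA:CR44479 and lncRNA:CR44750 passed in 0 of 8 fits and lncRNA:CR43634 and asRNA:CR45343 in 1 of 8, and with the length trend removed none of the 4 passed (adjusted p from 0.108 to 0.114). lncRNA:CR44360 went the other way, with counts of 1 and 0 in line 19 females against 7 and 17 in line 4 females. asRNA:CR43615 had 1.09 and 0.159 CPM in line 19 females against 10.4 and 64.9 CPM in line 4 females. These 2 passed in 2 of 8 (lncRNA:CR44360) and 3 of 8 (asRNA:CR43615) such fits, and neither passed with the length trend removed (adjusted p = 0.0713 and 0.0738). The counting did not use strand, so reads of antisense genes and of genes they overlap cannot be told apart.

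The next 3 genes were chosen after their values were seen, for large differences between the females of the lines. snRNA:U1:82Eb, a copy of the U1 RNA that recognises 5′ splice sites, had 252 and 238 CPM in line 19 females against 13.9 and 10.7 CPM in line 4 females (log2 fold change 4.31 ± 0.35, edgeR adjusted p = 0.000468). In males it lay between 3.54 and 6.63 CPM, and females of the 12 other lines ranged from 10.3 to 356 CPM. CG45603 had 88.3 and 95.3 CPM in line 19 females against 6.70 and 8.89 CPM in line 4 females. CG34220, in contrast, had 1578 and 1617 CPM in line 19 females against 16039 and 17590 CPM in line 4 females (log2 fold change -3.40 ± 0.43, adjusted p = 0.00199), and between 13346 and 34608 CPM in males. U1 genes occur in near-identical copies, so the assignment of reads to snRNA:U1:82Eb is uncertain.

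Genes called in females were spread over the chromosome arms. The share lower in line 19 females was 10.9% on X, 8.24% on 2L, 10.4% on 2R, 9.78% on 3L and 9.49% on 3R, against 9.69% of all genes. The small chromosome 4 had 19 of 105 genes lower (18.1%) and 2 higher, and the median exon length of its genes was 3382 bases. Among its called genes were bt (bent), which encodes the giant sarcomere protein projectin, with 459 and 632 CPM in line 19 females against 2102 and 2118 CPM in line 4 females, and unc-13, a gene for synaptic vesicle priming, with 77.2 and 99.3 CPM against 281 and 268 CPM. The zinc-finger gene dati had 31.8 and 31.8 CPM in line 19 females against 55.9 and 167 CPM in line 4 females, and lncRNA:sphinx, one of the 2 higher genes, had 8.85 and 8.19 CPM against 2.04 and 1.17 CPM. With 1 library left out at a time bt and unc-13 passed in 8 of 8 fits, lncRNA:sphinx in 6 and dati in 3. With the length trend removed 1 gene of chromosome 4 was higher and 0 lower in line 19 females. This gene was not lncRNA:sphinx, which did not pass there (edgeR, adjusted p = 0.0777). None of 51 Y-linked genes was called in females or males.

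In males, edgeR called 0 of the 15806 genes (0%), with 465 at an unadjusted p under 0.05. DESeq2 called 44 (445 at an unadjusted p under 0.05) and limma-voom 3, which were mt:lrRNA and Muc4B, lower in line 19, and CG13359, higher. A fit over 54 libraries called 20 genes, among them CG13359, CG30089, CG9018 and CG5151. The common dispersion, a measure of spread between libraries of 1 group, was 0.0817 in the 4 male libraries alone and 0.141 in the 4 female libraries alone.

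The next 3 genes were looked at because of their small p in males. CG1077 had 1.94 and 3.04 CPM in line 19 males against 13.5 and 18.1 CPM in line 4 males (log2 fold change -2.66, edgeR adjusted p = 0.0726), and between 30.7 and 45.6 CPM in females. mt:lrRNA, the large ribosomal RNA of the mitochondrion, had 104 and 288 CPM in line 19 males against 14884 and 3877 CPM in line 4 males (log2 fold change -5.58 ± 0.81, adjusted p = 0.189). Mitochondrial transcripts together took 0.292% and 1.17% of counts in line 19 males, against 5.02% and 2.39% in line 4 males, the opposite order to that in females. mt:ND2 had 0.430 and 1.15 CPM in line 19 males against 36.6 and 13.8 CPM in line 4 males, and its female minus male difference of 6.44 ± 0.90 passed the threshold (adjusted p = 0.00978), one of 5 such differences among the 20 mitochondrial transcripts, all above 0. Over all genes tested, 5.04% had such a difference.

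The male count changed with 1 library. Without the line 19 male 36_S28 edgeR called 45 genes, 44 of them lower in line 19, and these included the yolk protein genes Yp1, Yp2 and Yp3 and the chorion genes Cp38, Cp36, Cp7Fa, Cp7Fb and Cp7Fc. The 9 chorion genes summed to 15.04 and 633 unscaled CPM in the line 19 males 35_S27 and 36_S28, against 1399 and 1034 in the line 4 males 59_S21 and J1_S51. The 5 vitelline membrane genes summed to 7.09 and 441 in line 19 males, against 577 and 7.54 in line 4 males, so these 2 lists did not order the 4 male libraries alike. The line 19 male 35_S27 had the lowest sum of the 4 males in the yolk, chorion and vitelline membrane lists. Without 35_S27 edgeR called 5 genes (TotC, CG13359, Nhe3 and DNApol-eta higher, Muc4B lower in line 19), and without the line 4 male 59_S21 it called 8, all lower. The part of female RNA in the male libraries in these results was not tested.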

How the data were processed

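The authors depleted ribosomal RNA, trimmed reads with AfterQC, aligned them with GSNAP, and used featureCounts 1.6.4 to assign read pairs to the exons of each gene, without strand, in a release 6 annotation. The authors deposited these counts without normalization. Total counts of the 8 libraries limit precision at low counts, as given in the report.

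The 8 Obp50b libraries were fitted in R 4.3.3 with edgeR 4.0.16 (TMM, quasi-likelihood F test, Benjamini-Hochberg over all genes tested) as sex plus line, and again with 4 means for the female, male and interaction contrasts. Genes at 0 in too many libraries (fewer than 25% of the 8 above 0) or with a median below 2 counts were dropped, leaving 15806 of 17490. Calls are at an FDR of 0.05. CPM are scaled by TMM unless called unscaled, and a gene's changes are log2 fold changes of line 19 over line 4. SE are from the edgeR fit and include the spread between libraries. The alternatives were DESeq2 1.42.0, DESeq2's size factors, limma-voom (limma 3.58.1), other filters, 54 libraries, sets and each library left out. The 2 female libraries of other lines that the study left out were not used, except in a repeat of the levels by line with all 56. For the length trend, a lowess curve (span 0.3) of each library's deviation from the mean of its sex on log2 exon length was added to the offsets. The procedure was tested on simulated data with 200 genes changed 2-fold, 4-fold or 8-fold. edgeR recovered 47%, 86% and 93% of them over both sexes, and 11.5%, 68.5% and 87.5% for changes in females alone. No change in males alone was simulated. A gene that was not called may therefore still differ. Figures were drawn with matplotlib 3.10.9.

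Named genes are those called over both sexes with the largest change or smallest p and no overlap of the lines in either sex, the 3 with the smallest interaction p, the 3 with the largest change among genes called in 1 sex, the genes of the locus, and up to 4 called members of each gene list. Others are said to be chosen after their values were seen. The comparison, the gene lists and the tests were chosen with earlier results of these data known.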

Additional observations from a re-analysis of the deposited data

Results flagged for a closer look

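The line effect differed between females and males by a direct test of the difference in 796 genes (edgeR's quasi-likelihood test, sex by line interaction, adjusted p under 0.05). The 3 with the smallest p had a female minus male difference in log2 fold change of -3.25 (CG11873), -2.76 (mim) and -3.06 (CG42232). In each, the 2 line 19 female libraries were the lowest of the 8. None of the 3 passed with length-corrected offsets (-1.97, -1.71 and -1.87 in the same order, adjusted p = 0.0986 for each) or with the first set alone (adjusted p = 0.0823 for each).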

How the results depend on the processing

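The 2 genes called over both sexes became 46 with DESeq2 (25 higher, 21 lower in line 19), 9 with limma-voom (6 and 3), 2185 in a fit over 54 libraries (421 and 1764), 822 when 4 means were averaged over the sexes (62 and 760), and 0 with first-set libraries alone or with set as a term. Leaving out 1 library gave 0 to 3 in all, 0 to 1 higher and 0 to 3 lower. The female count of 1780 became 3395 with 54 libraries, 1032 with the first set, 222 with length-corrected offsets, 1098 past 2-fold, and 1140 to 2186 with 1 library left out. Of the female calls 13.9% were higher in line 19, against 20.5% with DESeq2's size factors in edgeR, 32.8% with DESeq2, 2.62% with the first set and, with 1 library left out, 3.08% (without 63_S43) to 22.1% (without 34_S26). The male count of 0 became 44 with DESeq2, 3 with limma-voom, 20 with 54 libraries, and 0 to 45 with 1 library left out. The interaction count of 796 became 512 with size factors, 1208 with limma-voom, 480 with a mean count of at least 10, 2238 with 54 libraries, 0 with the first set or length-corrected offsets, and 269 to 899 with 1 library left out. The genes of the Obp50 locus gave 1 call with 54 libraries, against 0. The norpA value in females reversed to 0.11 with length-corrected offsets. Over 39 named results and all alternatives, 484 values kept direction and side of the threshold, 216 kept direction only, and 1 reversed. Length-corrected offsets lower the length-related calls by construction, and the 54-library fit has more residual degrees of freedom. The fit of sex plus line has no term for a line effect that differs between the sexes. Such differences therefore enter its estimate of spread, and they do not enter that of the 4 means. The cause of the other changes was not tested. With all 56 libraries, 596 rather than 657 genes had line 19 females below all other lines. No paired analysis was possible because the library labels carry no replicate number that the lines share.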
